A study of Mus musculus with 4 samples.

Results

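The 49 genes described here had a higher mean RPKM (read count scaled to gene length and library size) in testes labelled as lacking Ptbp2 through a conditional knockout (cKO) than in wild-type (WT) testes. They were chosen by that difference in the same 4 libraries, so their direction is the selection itself and carries no test. The authors' deposited table, titled as differentially expressed genes, lists 988 genes, so shares over all 988 describe genes that the authors called. Of these, 63 were higher in labelled cKO, 925 were lower, and 14 of the 63 higher genes (5 collagens, 4 histones, and H2-Aa, Cd74, Lyz2, Hsd3b1 and Inha) were left out by name, which leaves 49.

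The 2 labelled cKO mice and the 2 WT mice were C57BL/6 males at postnatal day 25, and RNA of whole testis was sequenced as 1 library per mouse. The labels call the mutant mice deficient in Ptbp2, and give neither the Cre driver, nor the cells in which it acts, nor the exon removed, nor any allele that the WT mice carry. Read totals do not accompany the RPKM values, so the depth behind each value is unknown and no counting interval is given. In whole tissue, more cells of a type and more RNA per cell cannot be told apart, and RPKM is a share of a library, so a level can be higher because other transcripts are lower.

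Ptbp2 encodes a polypyrimidine tract binding protein, which binds pyrimidine-rich stretches of pre-messenger RNA and represses or promotes the use of nearby exons. In the testis it is found in germ cells, which develop inside tubules that Sertoli cells line. Around each tubule lie a basement membrane built of laminins and collagens, contractile myoid cells, and an interstitium with Leydig cells, macrophages and blood vessels.

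Ptbp2, the targeted gene, had 111 and 98.2 RPKM in labelled cKO libraries 1 and 2, against 65.7 and 66.6 RPKM in WT libraries 1 and 2. Both libraries labelled cKO lay above both WT libraries, with a log2 ratio of means of 0.66 ± 0.09 (SE, n = 2 each), the smallest among the 49 genes. A level over the whole gene does not separate transcripts that lack an exon from intact ones, so the labels are not checked by it, and every direction below is that of libraries labelled cKO. The promoter of Ptbp2, shown because the gene is both the target and a member, spans chr3:119783339-119783638 (GRCm38.p6, minus strand, RefSeq). Its CG dinucleotides, 36 in number, are in capitals.
Ptbp2: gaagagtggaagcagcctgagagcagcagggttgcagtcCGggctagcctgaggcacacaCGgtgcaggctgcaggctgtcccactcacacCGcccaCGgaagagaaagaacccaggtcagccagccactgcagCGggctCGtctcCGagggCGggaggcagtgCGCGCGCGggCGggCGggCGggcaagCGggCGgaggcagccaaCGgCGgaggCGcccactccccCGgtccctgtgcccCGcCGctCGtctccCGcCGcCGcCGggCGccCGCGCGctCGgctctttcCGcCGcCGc

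Over the 49 genes, the log2 ratio of mean RPKM, labelled cKO over WT, ran between 0.66 and 2.14, with a median of 0.88, a 1.84-fold difference. Both labelled cKO libraries lay above both WT libraries for all 49, and all 988 genes of the table (100%) have groups without overlap in one direction or the other. The lowest labelled cKO value was between 1.29 times (Lamb1) and 2.85 times (Mir298) the highest WT value, with a median of 1.503. At least 2-fold higher in labelled cKO were 16 of the 49, against 2.23% of all 988 genes, a comparison fixed by the selection on direction. With labelled cKO library 1 alone against the WT mean that count was 6, and with library 2 alone it was 33. It was 10 after rescaling RPKM to the reads outside the listed lower genes, and 6 on the log2(RPKM + 1) scale.

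Among the 49 genes, those nearest to equal means were U2af2, Abca1 and Ptbp2, with log2 ratios of 0.69, 0.68 and 0.66. On the lower side the nearest were Akap12, Hook1 and Grk4, at -0.62, -0.65 and -0.66. Akap12, for example, had 88.7 and 76.1 RPKM in labelled cKO, against 126 and 127 RPKM in WT. The only gene of the table between these sets is Hist1h2ba, a histone left out by name, at 0.60.

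**Figure D1:**
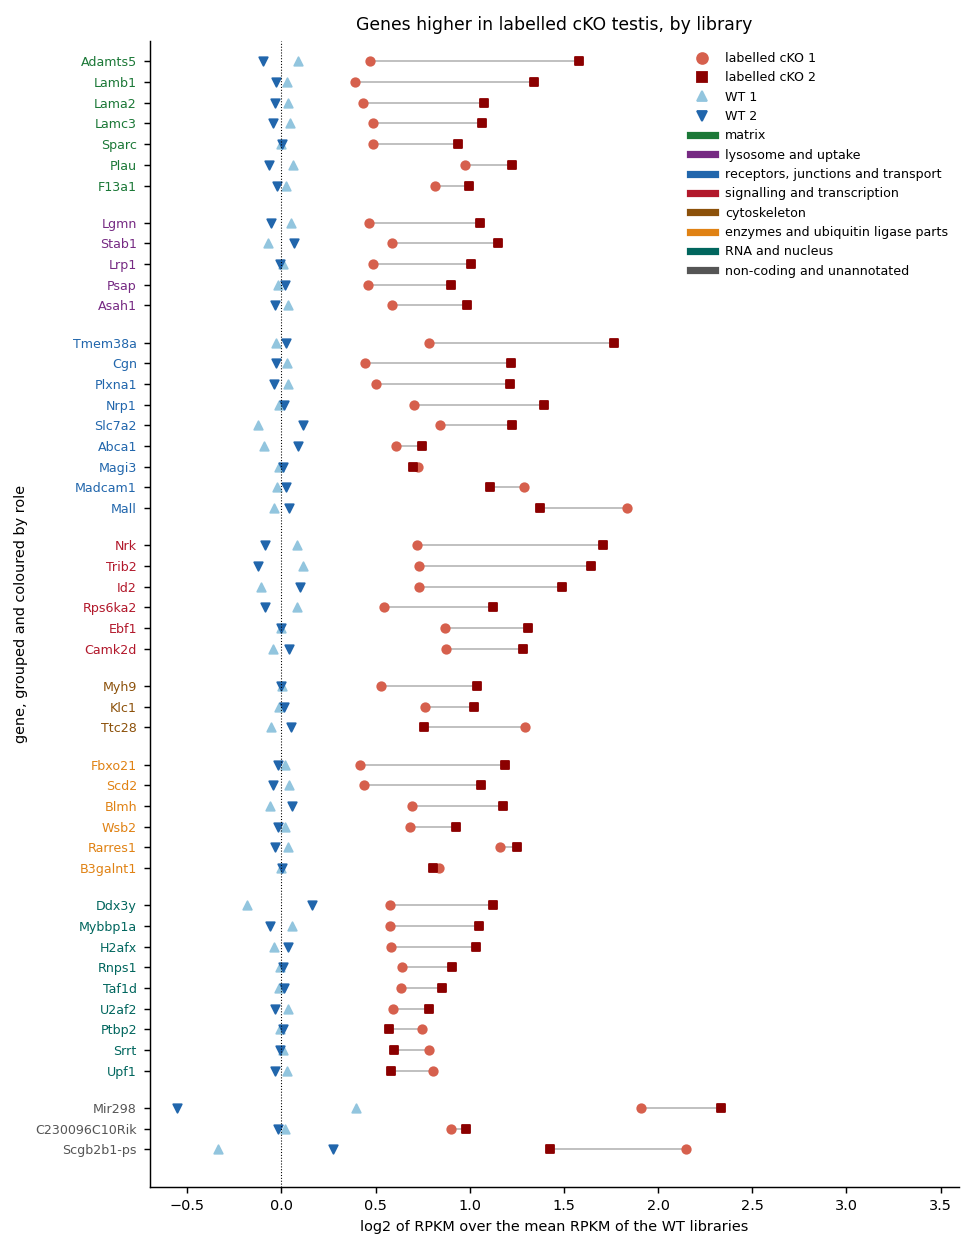
Each of 48 of the genes is a row, and the x axis gives the log2 of each library's RPKM over the mean RPKM of the 2 WT libraries. Points are labelled cKO libraries 1 (circle) and 2 (square) and WT libraries 1 and 2 (triangles), and a grey line joins the labelled cKO pair. The 2 labelled cKO points lie to the right of both WT points in every row, and the square lies to the right of the circle in 39 of 48 rows.

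The absolute RPKM range of the 2 labelled cKO libraries exceeded that of the WT libraries in 49 of 49 genes, and in 734 of all 988. An absolute range tends to grow with level, and the 49 were chosen to be higher in labelled cKO. As log2 ratios of library 2 over 1, WT was the wider for Mir298 (-0.95 in WT, 0.42 in labelled cKO) and Abca1 (0.18 and 0.14). The difference of group means exceeded the range within both groups for 38 of the 49. For the other 11, among them Tmem38a, Nrk, Trib2, Adamts5, Lamb1, Plxna1, Cgn, Fbxo21, Lama2 and Scd2, the labelled cKO libraries lay as far apart as the group means or farther. Labelled cKO library 2 was above library 1 for 40 of 49 genes (81.6%), against 9.92% of all 988 genes. At least 1.5-fold higher in library 2 were 14 of 49, against 2.23% of all 988 genes. Library 2 was the lower for 877 of the 925 lower genes, so both comparisons with all 988 are tilted by the selection on direction. Among the 14 higher genes left out by name, library 2 was the higher for 11 (78.6%), and by at least 1.5-fold for 6. The median log2 ratio of library 2 over library 1 was 0.44 (1.36-fold) over the 49 genes, and it was -0.92 over the 925 lower genes. WT library 2 was above WT library 1 for 22 of the 49 (44.9%), with a median log2 ratio of -0.01. Relative to the WT mean, the median gene was thus 1.60-fold higher in labelled cKO library 1 and 2.10-fold higher in library 2. With 1 mouse on each side of this comparison, no test was possible.

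Spermatid transcripts, as a sum, were lower in labelled cKO library 2 than in library 1, which is 1 pair of libraries. Of 34 spermatid genes on a marker list, 26 were in the table and all 26 were lower in labelled cKO, beside 925 of all 988 genes. Their summed level was 373 and 111 RPKM in labelled cKO libraries 1 and 2, against 2321 and 3062 RPKM in WT libraries 1 and 2. The sum thus differed between the WT libraries too, where the 49 genes had a median log2 ratio of library 2 over 1 of -0.01. The library with the least spermatid RNA, labelled cKO 2, was the one in which most of the 49 genes were highest. From RPKM and annotated exon lengths, the 925 lower genes held an estimated 5.62% and 3.74% of reads in labelled cKO, against 11.5% and 12.0% in WT. Expressing each level relative to the remaining reads lowered the log2 ratios of labelled cKO by 0.10 (library 1) and 0.12 (library 2). After that rescaling, which moves every gene by the same amount, the median log2 ratio of labelled cKO over WT was 0.76. That amount is smaller than the smallest ratio among the selected genes, so it could turn none of them. The part that cell proportions play in the difference was not tested.

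**Figure D2:**
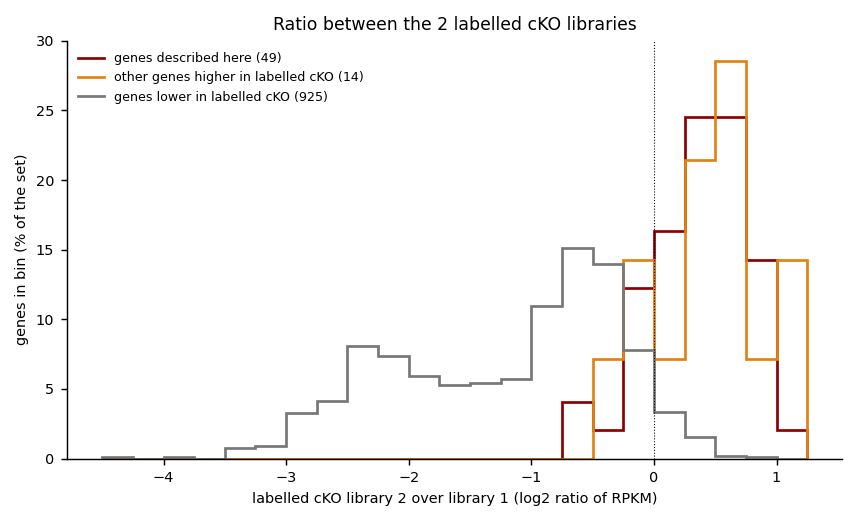
Histograms of the log2 ratio of labelled cKO library 2 over library 1 (x axis), with the percent of each set on the y axis, for the 49 genes, the 14 higher genes left out by name and the 925 lower genes. The 49 genes have a median of 0.44 and the 14 a median of 0.51, while the lower genes spread widely below 0 with a median of -0.92.

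Structural proteins of the extracellular matrix and enzymes that remodel it made up 7 of the 49 genes, and 7 of 7 were higher in labelled cKO library 2 than in library 1, beside 40 of 49 (81.6%) over all the genes described. At least 2-fold above the WT mean were 0 of 7 in labelled cKO library 1 and 5 of 7 in library 2. Over all the genes described these counts were 6 of 49 and 33 of 49. The role groups, here and below, were assigned after the values were seen. Laminins are trimers of the basement membrane under the Sertoli cells, and 3 of their chains were present. Lama2, the alpha 2 chain, had 20.7 and 32.3 RPKM in labelled cKO, against 15.7 and 15.0 RPKM in WT. Lamb1, the beta 1 chain, had 9.23 and 17.9 RPKM in labelled cKO, against 7.17 and 6.90 RPKM in WT. Lamc3, the gamma 3 chain, had 18.1 and 27.1 RPKM in labelled cKO, against 13.3 and 12.5 RPKM in WT. For all 3 chains labelled cKO library 1 lay nearer to WT than to library 2, with log2 ratios of library 2 over 1 of 0.64, 0.95 and 0.58.

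Sparc, a secreted glycoprotein that binds collagen, was the most abundant of the 49 genes, with 226 and 309 RPKM in labelled cKO, against 161 and 162 RPKM in WT. Adamts5, a protease that cleaves proteoglycans, had 5.24 and 11.3 RPKM in labelled cKO, against 4.02 and 3.53 RPKM in WT. Labelled cKO library 2 held 2.15 times as much Adamts5 as library 1, the widest gap upward among the 49 genes, and the log2 ratio of labelled cKO over WT was 1.13 ± 0.56 (SE, n = 2 each). Plau, the urokinase-type plasminogen activator, had 2.65 and 3.15 RPKM in labelled cKO, against 1.41 and 1.29 RPKM in WT. F13a1, the clotting transglutaminase chain also found in macrophages, had 9.26 and 10.5 RPKM in labelled cKO, against 5.36 and 5.18 RPKM in WT. Plau and F13a1 differed from the laminins and from Adamts5 in that both labelled cKO libraries were near each other. Their log2 ratios of library 2 over 1 were 0.25 for Plau and 0.19 for F13a1. Of 44 matrix genes other than collagens on a pathway list, 4 were in the table (Lama2, Lamb1, Lamc3 and Sparc) and none was lower. The list was chosen with earlier results known, so this count carries no weight. Among the collagens left out by name, labelled cKO library 2 was the higher in 5 of 5, with a median log2 ratio of 0.90. Col22a1, another collagen, was among the lower genes, with a log2 ratio of library 2 over 1 of -0.81.

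The promoters of Lamb1 and Lama2 are shown because both chains belong to the same protein family and their levels differed between the labelled cKO libraries in the same direction, while their promoters differ in base content. Lamb1 lies at chr12:31265043-31265342 (plus strand) and holds 18 CG dinucleotides, and Lama2 lies at chr10:27616893-27617192 (minus strand) and holds 1 (both GRCm38.p6, RefSeq). CG dinucleotides are in capitals.
Lamb1: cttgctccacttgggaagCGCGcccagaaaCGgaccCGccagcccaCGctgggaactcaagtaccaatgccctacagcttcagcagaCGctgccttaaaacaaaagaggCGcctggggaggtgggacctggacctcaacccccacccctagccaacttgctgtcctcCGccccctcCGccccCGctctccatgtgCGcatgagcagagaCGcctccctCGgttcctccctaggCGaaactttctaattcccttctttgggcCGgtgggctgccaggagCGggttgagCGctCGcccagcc
Lama2: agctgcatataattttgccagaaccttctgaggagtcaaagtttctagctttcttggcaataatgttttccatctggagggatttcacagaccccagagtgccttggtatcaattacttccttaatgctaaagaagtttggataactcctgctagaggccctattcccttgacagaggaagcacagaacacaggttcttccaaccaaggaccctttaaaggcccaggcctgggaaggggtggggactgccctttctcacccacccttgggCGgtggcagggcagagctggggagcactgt

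Lysosomal enzymes and endocytic receptors, 5 of the 49 genes, had the narrowest spread of the 8 groups, with log2 ratios of labelled cKO library 2 over 1 between 0.40 and 0.59. Psap, the precursor of the saposins that help lysosomal enzymes reach lipids, had 166 and 225 RPKM in labelled cKO, against 119 and 122 RPKM in WT. Lgmn, the lysosomal protease legumain, had 75.1 and 113 RPKM in labelled cKO, against 56.4 and 52.4 RPKM in WT. Asah1, acid ceramidase, had 37.5 and 49.5 RPKM in labelled cKO, against 25.6 and 24.4 RPKM in WT. All 3 were higher in both labelled cKO libraries, and library 2 was the higher of them each time. Stab1, a scavenger receptor of macrophages and sinusoidal endothelium, had 7.19 and 10.6 RPKM in labelled cKO, against 4.55 and 5.01 RPKM in WT. Lrp1, an endocytic receptor of the LDL receptor family, had 7.83 and 11.2 RPKM in labelled cKO, against 5.62 and 5.57 RPKM in WT. Stab1 and Lrp1 thus followed the lysosomal genes, with log2 ratios of labelled cKO over WT of 0.90 and 0.77.

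**Figure D3:**
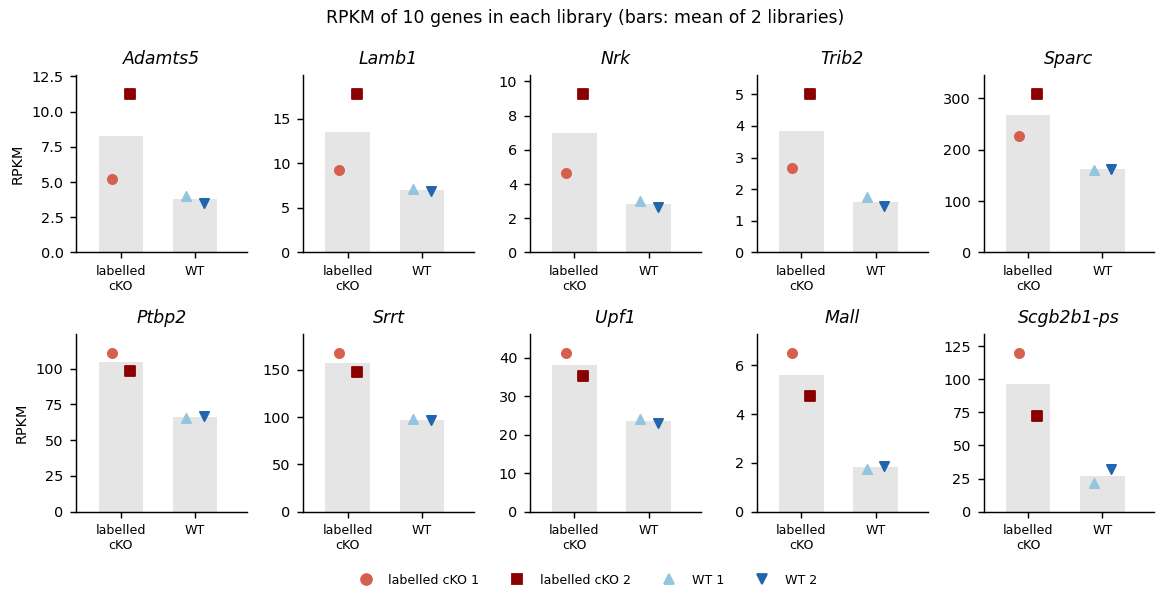
RPKM of 10 genes in each library, with bars for the mean of 2 libraries and points for the libraries, labelled cKO left and WT right. In the upper row (Adamts5, Lamb1, Nrk, Trib2, Sparc) labelled cKO library 2 is the highest of the 4 libraries, and in the lower row (Ptbp2, Srrt, Upf1, Mall, Scgb2b1-ps) labelled cKO library 1 is.

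Receptors, junction proteins and transporters, 10 of the 49 genes, held both the strongest protein-coding difference and genes that were lower in labelled cKO library 2. Mall, a proteolipid of lipid rafts, had 6.50 and 4.72 RPKM in labelled cKO, against 1.77 and 1.87 RPKM in WT, a 3.08-fold difference. Madcam1, the adhesion molecule by which vessels of the gut recruit lymphocytes, had 3.08 and 2.72 RPKM in labelled cKO, against 1.24 and 1.28 RPKM in WT. Magi3, a scaffold at cell junctions, had 19.1 and 18.7 RPKM in labelled cKO, against 11.5 and 11.6 RPKM in WT. For these 3 genes labelled cKO library 1 was the higher, with log2 ratios of library 2 over 1 of -0.46, -0.18 and -0.03.

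The other 7 of this group were higher in labelled cKO library 2. Tmem38a, an intracellular potassium channel of muscle and other cells, had 2.37 and 4.67 RPKM in labelled cKO, against 1.35 and 1.40 RPKM in WT. Cgn, the tight junction protein cingulin, had 20.5 and 34.9 RPKM in labelled cKO, against 15.3 and 14.7 RPKM in WT. In both, labelled cKO library 1 lay nearer to the WT values than to library 2. Nrp1 and Plxna1, a receptor pair for semaphorins, had log2 ratios of labelled cKO over WT of 1.09 and 0.90, and of library 2 over 1 of 0.69 and 0.71. Nrp1 reached 4.52 and 7.29 RPKM in labelled cKO, against 2.75 and 2.80 RPKM in WT, and Plxna1 reached 10.9 and 17.8 RPKM in labelled cKO, against 7.88 and 7.48 RPKM in WT. Slc7a2, a transporter of cationic amino acids, had 4.79 and 6.25 RPKM in labelled cKO, against 2.45 and 2.89 RPKM in WT. Abca1, which exports cholesterol from cells, had 44.5 and 49.1 RPKM in labelled cKO, against 27.4 and 31.0 RPKM in WT. Of 32 genes on a cholesterol and steroid list 30 were not in the table, and the others were Abca1 and Fdft1, of which Fdft1 was lower.

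Signalling and transcription proteins, 6 of the 49 genes, were higher in labelled cKO library 2 in 6 of 6, beside 40 of 49 over all the genes described. By the mean of both labelled cKO libraries 5 of the 6 were at least 2-fold above WT, beside 16 of 49. With labelled cKO library 1 alone that count was 0 of 6, beside 6 of 49, and with library 2 alone it was 6 of 6, beside 33 of 49. Nrk, a kinase encoded on the X chromosome, had 4.67 and 9.29 RPKM in labelled cKO, against 3.01 and 2.67 RPKM in WT. Trib2, a pseudokinase on the list of immediate early and stress genes, had 2.66 and 5.02 RPKM in labelled cKO, against 1.74 and 1.47 RPKM in WT. Id2, an inhibitor of helix-loop-helix transcription factors, had 10.1 and 17.2 RPKM in labelled cKO, against 5.67 and 6.54 RPKM in WT. The log2 ratios of labelled cKO over WT of these 3 were 1.30 ± 0.50, 1.26 ± 0.47 and 1.16 ± 0.39 (SE, n = 2 each). Camk2d, a calcium-dependent kinase, had 2.72 and 3.62 RPKM in labelled cKO, against 1.44 and 1.53 RPKM in WT. Ebf1, a transcription factor of stromal and B cells, had 1.92 and 2.60 RPKM in labelled cKO, against 1.05 and 1.05 RPKM in WT. Rps6ka2, a ribosomal S6 kinase, had 12.4 and 18.5 RPKM in labelled cKO, against 8.98 and 7.98 RPKM in WT. Rps6ka2 had the smallest of the 6 ratios, with a log2 ratio of 0.86.

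Parts of the cytoskeleton numbered 3. Ttc28, a tetratricopeptide repeat protein, had 2.62 and 1.81 RPKM in labelled cKO, against 1.03 and 1.11 RPKM in WT, and its log2 ratio of library 2 over 1 was -0.53. Klc1, a kinesin light chain, had 14.8 and 17.7 RPKM in labelled cKO, against 8.62 and 8.77 RPKM in WT. Myh9, the heavy chain of non-muscle myosin, had 7.11 and 10.1 RPKM in labelled cKO, against 4.93 and 4.92 RPKM in WT. Ttc28 differs from the other two in having the higher value in labelled cKO library 1.

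Enzymes and ubiquitin ligase parts, 6 of the 49 genes, ranged from genes with nearly equal labelled cKO libraries to Fbxo21, with a log2 ratio of library 2 over 1 of 0.77. B3galnt1, which builds globoside, had 27.4 and 26.9 RPKM in labelled cKO, against 15.3 and 15.4 RPKM in WT, and its log2 ratio of 0.82 ± 0.02 (SE, n = 2 each) has the smallest error among the 49. Rarres1, a retinoid-responsive gene, had 8.52 and 9.08 RPKM in labelled cKO, against 3.91 and 3.72 RPKM in WT, a 2.31-fold difference. Wsb2, with a box that binds ubiquitin ligases, had 34.5 and 40.9 RPKM in labelled cKO, against 21.8 and 21.3 RPKM in WT. Each of these 3 had labelled cKO libraries near each other. Blmh, a cysteine protease, had 41.1 and 57.4 RPKM in labelled cKO, against 24.3 and 26.4 RPKM in WT. Scd2, a fatty acid desaturase, had 44.6 and 68.5 RPKM in labelled cKO, against 33.9 and 32.0 RPKM in WT. Fbxo21, an F-box protein, had 27.1 and 46.2 RPKM in labelled cKO, against 20.5 and 20.02 RPKM in WT. In Blmh, Scd2 and Fbxo21 labelled cKO library 2 was the higher, at 1.40, 1.53 and 1.71 times library 1.

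RNA and nuclear proteins numbered 9, none of them 2-fold higher by the mean of labelled cKO and none 1.5-fold apart between the labelled cKO libraries. With labelled cKO library 2 alone 3 of the 9 reached 2-fold, beside 33 of 49 over all the genes described. Upf1, the helicase of nonsense-mediated decay, had 41.3 and 35.3 RPKM in labelled cKO, against 24.2 and 23.1 RPKM in WT. Srrt, a partner of the cap-binding complex, had 168 and 147 RPKM in labelled cKO, against 98.0 and 96.7 RPKM in WT. Like Ptbp2, both were higher in labelled cKO library 1, with log2 ratios of library 2 over 1 of -0.23 for Upf1, -0.19 for Srrt and -0.18 for Ptbp2. U2af2, which recognises the pyrimidine tract before an exon, had 68.0 and 77.5 RPKM in labelled cKO, against 46.1 and 43.9 RPKM in WT. Rnps1, a splicing factor that joins the exon junction complex, had 40.3 and 48.5 RPKM in labelled cKO, against 25.7 and 26.01 RPKM in WT. Taf1d, a subunit of an RNA polymerase I factor, had 25.3 and 29.4 RPKM in labelled cKO, against 16.1 and 16.4 RPKM in WT. These 3 were slightly higher in labelled cKO library 2.

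H2afx, the histone variant phosphorylated at DNA breaks and on the sex chromosomes of spermatocytes, had 72.1 and 98.7 RPKM in labelled cKO, against 47.0 and 49.5 RPKM in WT. Mybbp1a, a nucleolar protein, had 15.2 and 21.1 RPKM in labelled cKO, against 10.6 and 9.79 RPKM in WT. Ddx3y, an RNA helicase of the Y chromosome, had 13.6 and 19.8 RPKM in labelled cKO, against 8.02 and 10.2 RPKM in WT. All 3 were highest in labelled cKO library 2. Of 42 genes on an RNA processing list, 3 were in the table (Ptbp2, U2af2 and Upf1) and none was lower. That list was chosen with earlier results known, so this count carries no weight. Celf6, Ddx20 and Papolb, which are not on it, were among the lower genes. Ddx3y and Scd2 have close copies elsewhere in the genome, and how the authors' counting treated reads shared with a copy is not given in the sources used here.

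**Figure D4:**
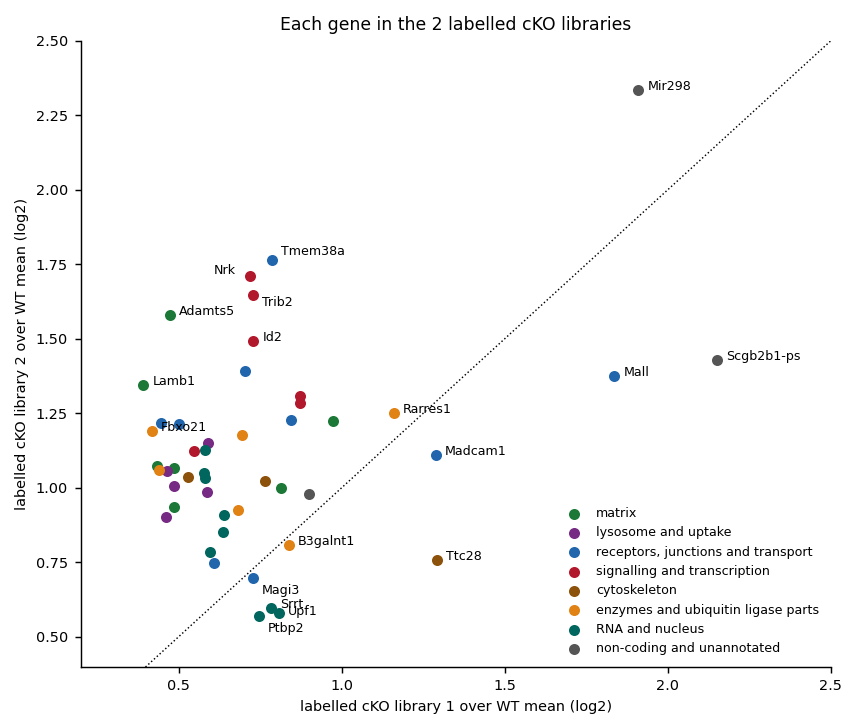
Each point is 1 of 48 of the genes, with the log2 of labelled cKO library 1 over the WT mean on the x axis and that of labelled cKO library 2 on the y axis, coloured by group. Points above the dotted line of equality are higher in library 2, and matrix, signalling and lysosomal genes all lie above it, while Ptbp2, Srrt, Upf1, Mall, Ttc28 and Scgb2b1-ps lie below.

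Genes annotated as non-coding or not matched to an annotation numbered 3, and they include the largest ratio. Mir298, a microRNA gene, had 4.19 and 5.62 RPKM in labelled cKO, against 1.47 and 0.76 RPKM in WT, a log2 ratio of 2.14 ± 0.52 (SE, n = 2 each). The labels' protocols name both poly(A) selection and ribosomal RNA depletion, so the value does not stand for the mature microRNA. Whether it comes from a precursor or from another transcript at this place was not tested. The Mir298 value covers an 82-base hairpin on chromosome 2 (chr2:174267504-174267585, GRCm38.p6, minus strand). If the authors used that length, 5.62 RPKM in labelled cKO library 2 would equal 1 read in every 2.17 M reads (M, mega), and 0.76 RPKM in WT library 2 would equal 1 read in every 16.0 M. How many reads lie behind the values is not known, since read totals are not given. Both mature arms are shown from RefSeq, with the seed, bases 2 to 8, in capitals; no other of 1738 mature microRNAs in the RefSeq table has either seed.
mmu-miR-298-5p: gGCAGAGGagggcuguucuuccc
mmu-miR-298-3p: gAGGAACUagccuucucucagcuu

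Scgb2b1-ps, a pseudogene of the secretoglobin family, had 120 and 72.6 RPKM in labelled cKO, against 21.3 and 32.6 RPKM in WT, a 3.57-fold difference. Labelled cKO library 2 held 0.61 times as much as library 1, the widest gap downward among the 49 genes, and secretoglobin copies can share reads, so its level is uncertain. C230096C10Rik, which the annotations used here did not match to a gene, had 14.9 and 15.7 RPKM in labelled cKO, against 8.07 and 7.86 RPKM in WT.

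Few of the 49 genes are on the cell marker lists, which do not hold the 5 genes left out by name. None of the 30 Sertoli, 37 Leydig, 10 endothelial, 7 erythroid, 18 spermatogonial and 9 epididymal genes on these lists was in the table. Absence means only that a gene was not listed as differentially expressed, and genes outside the table were not analysed here. Inha, an inhibin chain made mainly by Sertoli cells, is not on a list but was in the table and was higher, with 99.6 and 138 RPKM in labelled cKO, against 70.2 and 71.7 RPKM in WT. Hsd3b1, a steroid enzyme of Leydig cells, likewise had 76.5 and 74.0 RPKM in labelled cKO, against 41.2 and 46.4 RPKM in WT. Both labelled cKO libraries lay above WT for both genes. Of 20 myoid and stromal markers, Sparc was higher in labelled cKO, and Actg2, a smooth muscle actin, was lower at 6.77 and 6.56 RPKM in labelled cKO, against 32.7 and 35.4 RPKM in WT. Of 20 macrophage markers, Aif1 was in the table and was lower, at 16.1 and 6.10 RPKM in labelled cKO, against 93.0 and 104 RPKM in WT. Cd74, H2-Aa and Lyz2, genes of antigen presentation and of macrophages that are not on that list, were higher in both labelled cKO libraries, with log2 ratios of labelled cKO over WT of 1.48, 1.55 and 0.99. Genes linked to macrophages thus lay on both sides. Aif1 had a log2 ratio of labelled cKO library 2 over 1 of -1.40, and library 2 was also the lower for 877 of the 925 lower genes. Which cells held Aif1 or Actg2 RNA was not tested. Of 44 spermatocyte markers, H2afx was higher, and Ccna1, Pgk2, Rec8 and Ybx2 were lower. The matrix, uptake and receptor genes above are known from somatic cells, many of them from several types, and no gene is assigned a cell of origin here.

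Pathway lists gave few further members. Of 34 immediate early and stress genes, Trib2 was higher and Klf4 was lower, and of 31 secreted ligands Penk was in the table and was lower. No gene of the lists for glutathione and detoxification (30 genes), imprinted genes (25), cell cycle and DNA replication (30) and apoptosis (24) was in the table. The lists are short and were chosen with earlier results known, so these counts do not show that such genes are absent. Ccnd3, Skp2, Cdkn3, Gstt4 and Bcl2l14, for example, are on none of these lists and were among the lower genes.

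Splicing was listed for 4 of the 49 genes (8.16%), against 8.91% of all 988 genes and 84 of the 925 lower genes (9.08%), a share near the background. The authors deposited 1 change in percent spliced in (ΔPSI) per event, with no value per library, and the header does not say which genotype was subtracted. Magi3 had a 91-base cassette exon with a ΔPSI of -28 points (chr3:103820525-103820615, minus strand, coordinates as deposited and taken as mm9). Ptbp2 had a 34-base cassette exon at -9 points (chr3:119427530-119427563, minus strand). Rnps1 had a 181-base cassette exon at -6.5 points, and Srrt a retained intron of 496 bases at 3 points. Magi3 alone among the 4 genes passed 10 points in either direction. The build was judged from 669 cassettes, of which 641 match a GENCODE exon of their gene in length but only 17 match one in mm10 coordinates.

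The choice of the 49 genes by direction of RPKM did not use gene length or promoter content directly. The authors' call of differential expression came first, and whether that call depends on exon length was not tested. Leaving genes out by name also shifted the median length. The median exon length of the 49, known for 48, was 5674 bases, against 2320 bases for the 925 lower genes. It was 1767 bases for the 14 higher genes left out by name, and 5354 bases over all 63 higher genes. The longest of the 49 were Camk2d, Lrp1 and Lama2. Promoters were found in the RefSeq table for 35 of the 49 genes, 39 in all. They held between 1 and 49 CG dinucleotides in 300 bases, with a median of 19, against 6 in the lower genes and 7 over all 32851 promoters of the table, and 74.4% held at least 10, against 38.7% in the lower genes and 43.5% over all. These shares are a description with no test. By chromosome, 7 of the 49 lie on chromosome 3 and 5 each on chromosomes 8 and 12.

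**Figure D5:**
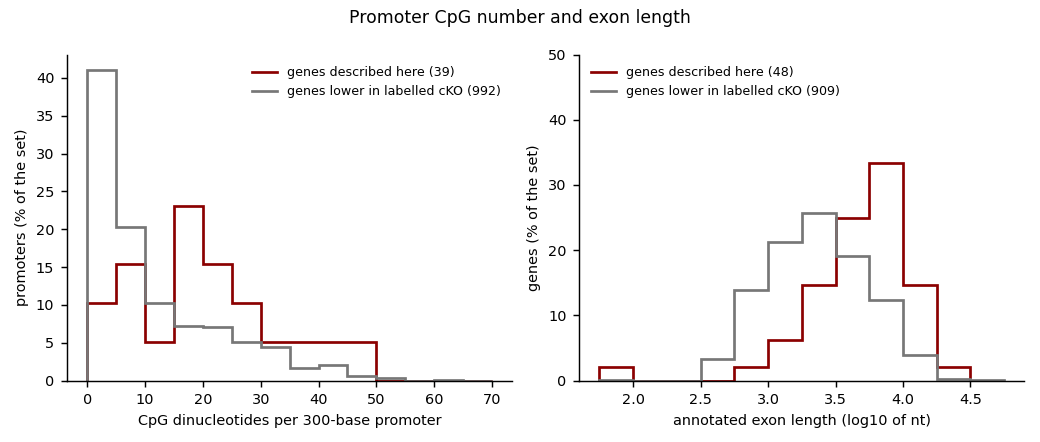
Left, CG dinucleotides in each promoter (250 bases before to 50 after the start) for 39 promoters of the genes described and 992 of the lower genes. Right, log10 of exon length in bases for 48 genes described and 909 lower genes, with the percent of each set on both y axes. The medians are 19 CG dinucleotides and 5674 bases in the genes described, against 6 and 2320 in the lower genes.

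Motifs were searched as exact letters on either strand. TCAAGGTCA, of the steroidogenic factor 1 type, was in 1 of 39 promoters, that of Psap (2.56%), against 0.423% of all promoters in the table. TGACGTCA, the cAMP response element, was in 1 of 39 (Klc1), against 1.79% of all. AGATAAG, of the GATA type, was in 1 of 39 (Ttc28), against 3.04% of all. With 1 promoter each, these counts describe single genes. The Psap promoter is shown since it holds the rarest of these matches, in capitals as the reverse complement, at position -149 from the start (chr10:60277378-60277677, plus strand, GRCm38.p6, RefSeq).
Psap: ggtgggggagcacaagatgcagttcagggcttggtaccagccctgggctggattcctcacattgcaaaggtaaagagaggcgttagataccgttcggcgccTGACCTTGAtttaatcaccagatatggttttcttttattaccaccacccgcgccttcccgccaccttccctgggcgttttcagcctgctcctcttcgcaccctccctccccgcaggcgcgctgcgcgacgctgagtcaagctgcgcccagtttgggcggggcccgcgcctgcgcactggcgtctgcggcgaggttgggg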

How the data were processed

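RNA of whole testis was sequenced from 2 mice labelled cKO and 2 labelled WT, separate animals per the labels. The authors deposited RPKM per library and their own log2 fold change and adjusted p-value per gene, per the file headers; only the RPKM columns were used for the values given. For splicing, the authors deposited 1 score per event, ΔPSI in percentage points, per the file headers. Genome builds mm9 and mm10 are named in the submitters' processing notes; for aligner, counter and splicing caller, no tool is named in the labels, headers or processing notes used.

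The 49 genes were selected on the deposited RPKM (mean of labelled cKO above mean of WT). The genes and lists were chosen with earlier results of these data known, and the role groups were assigned after the values were seen. No test was made: the difference from WT chose the genes, and the labelled cKO libraries are 1 against 1. The SE of a log2 ratio comes from the SDs of log2 RPKM over the 2 libraries of each group. It is strictly the error of a difference of mean log2 RPKM. Beside a log2 ratio of mean RPKM it is therefore approximate, most of all where the labelled cKO libraries lie far apart. Every gene but 1, which is counted in the totals and not reported here by name, is given with its values, with each library's RPKM for the 10 largest ratios, the 5 highest levels, the 5 highest and 5 lowest ratios between labelled cKO libraries, genes on a fixed list and events of at least 10 points. Exon lengths came from GENCODE release M21, promoters and microRNAs from RefSeq GRCm38.p6. Alternatives were a pseudocount of 0.1 or 1, minimum mean RPKM of 1 or 5, each library left out, and rescaling to reads outside the lower genes. The calculations, in Python 3.11.15 with pandas 2.3.3 and numpy 2.4.6, were tested on simulated data.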

Additional observations from a re-analysis of the deposited data

How the results depend on the processing

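The number of genes, 49, could not change with a library left out, with log2 means or with no overlap required, since all 988 listed genes have groups without overlap, nor with rescaling to reads outside the lower genes, which moves all genes alike by less than the smallest ratio. It is therefore no sign of stability. The count at least 2-fold higher, 16, was 6 on the log2(RPKM + 1) scale, 4 among genes with a mean RPKM of at least 5, 10 after rescaling, and between 6 (without labelled cKO library 2) and 33 (without labelled cKO library 1) when 1 library was left out. It depends on the labelled cKO library used. The median log2 ratio of labelled cKO library 2 over library 1, 0.44, was 0.45 at a mean RPKM of at least 5 and 0.41 after rescaling. The 40 genes higher in labelled cKO library 2 were 14 at 1.5-fold or more. The 4 genes with a splicing event were 1 at an absolute ΔPSI of at least 10 points and 1 at 20. No paired analysis was possible because no test was made and a shared replicate number does not say that mice are related. Depth is unknown, 2 mice a group give a rough SE.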
